A study of Mus musculus with 16 samples.

Results

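This account covers 35 genes for ion channels and for the release and receipt of neurotransmitter, among the 3925 mouse genes whose promoters were measured in a chromatin immunoprecipitation (ChIP-seq) study of bone marrow stroma. They were chosen by name: every gene on an autosome whose symbol belongs to the potassium (Kcn), sodium (Scn), calcium (Cacn), chloride (Clcn), TRP (Trpc, Trpm, Trpv), HCN, GABA, glycine, glutamate or nicotinic receptor, synaptotagmin, syntaxin or neurexin families. Of the 3789 autosomal genes measured, 3273 had a symbol, and 35 of those fitted. They were 10 potassium channel genes, 8 calcium channel genes, 6 TRP channel genes, 3 synaptotagmins, 2 each for sodium channels, chloride transport and glutamate receptors, 1 nicotinic receptor subunit and 1 syntaxin. No HCN, GABA, glycine receptor or neurexin gene was among those measured with a symbol.

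The cells were mesenchymal stromal cells of the endosteum, the inner bone surface next to the marrow, from C57BL/6J mice. Control animals carried Bap1 alleles flanked by loxP sites (Bap1fl/fl, here WT), and in the conditional knockout (cKO) the same alleles were deleted by Prx1-cre, which is active in limb mesenchyme. Each of the 4 marks H2AK119ub1, H3K27me3, H3K4me3 and H3K27ac had 2 libraries per genotype. The labels do not say that those 2 libraries came from separate animals, so p-values here measure the spread between libraries, which may be technical. The labels used here state neither age nor sex. For H3K4me3 and H3K27ac the antibody entered in the labels is the one of the other mark, so these libraries are called here by their titles.

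BAP1 is the enzyme that removes the ubiquitin of H2AK119ub1 from histone H2A. That ubiquitin is placed by Polycomb repressive complex 1, and Polycomb repressive complex 2 makes H3K27me3; both marks lie over promoters of silent developmental and neuronal genes. H3K4me3 and H3K27ac lie over promoters in use, and H3K27ac and H3K27me3 cannot sit on the same lysine. Ion channels set the membrane voltage and let calcium into cells, and synaptotagmins and syntaxins drive the fusion of vesicles with membranes. Many of these genes are known from neurons and muscle, and some, such as those for TRPV4 and the BK potassium channel, also from skeletal cells.

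Signal was summed over the 4 kb around each gene start, here called the promoter, and is given in CPM, the usual scaling of counts by library size, here by the autosomal counts of that library. Summed over all measured windows, libraries held 1283020 to 10101047 counts, and the median promoter of these 35 genes held 166 to 804 counts per library. Replicate libraries correlated across promoters at Pearson r 0.858 to 0.990 and differed beyond counting noise. Of 10 stromal marker genes 6 were measured, and WT H3K4me3 was high at Cxcl12 (591 ± 29.6 CPM, mean ± SD, n = 2), Pdgfrb (543 ± 37.6) and Twist2 (529.6 ± 6.27), with Thy1 low (17.3 ± 4.67). Neuronal Tubb3 stood at 76.2 CPM and muscle Des at 17.8. No gene of the blood, endothelium or glia lists was measured, so other cells in the preparations could not be checked through them. In bulk ChIP, fewer cells carrying a mark and less mark per cell cannot be told apart. The Bap1 locus itself was not analysed here. Transcript levels were not analysed here either, so the values below describe histone marks, not expression.

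In WT stroma the channel and synaptic promoters were rich in the Polycomb marks and poor in the active ones. Their median H3K27me3 was 142 CPM against 82 over all autosomal promoters, and 27 of the 35 stood above that general median. H2AK119ub1 had a median of 141 CPM against 108, with 25 above. H3K4me3 showed the reverse, with a median of 61.2 CPM against 169 and 4 genes above, and H3K27ac had 55.0 against 126, also with 4 above. Ranked by WT H3K27me3, 10 members (28.6%) were in the top 10% of promoters, where 10.2% of all autosomal promoters lay. These were Kcnj4, Kcnma1, Cacna1g, Kcnk4, Cacna2d3, Cacna1b, Syt13, Trpm3, Trpc1 and Cacna1a. None of the 35 was in the top 10% for H3K4me3 or for H3K27ac, where 10.4% and 10.3% of all autosomal promoters lay. The genes were picked by family, not by these levels, but the measured genes are the authors' selection, so the comparison holds within that selection only.

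**Figure D1:**
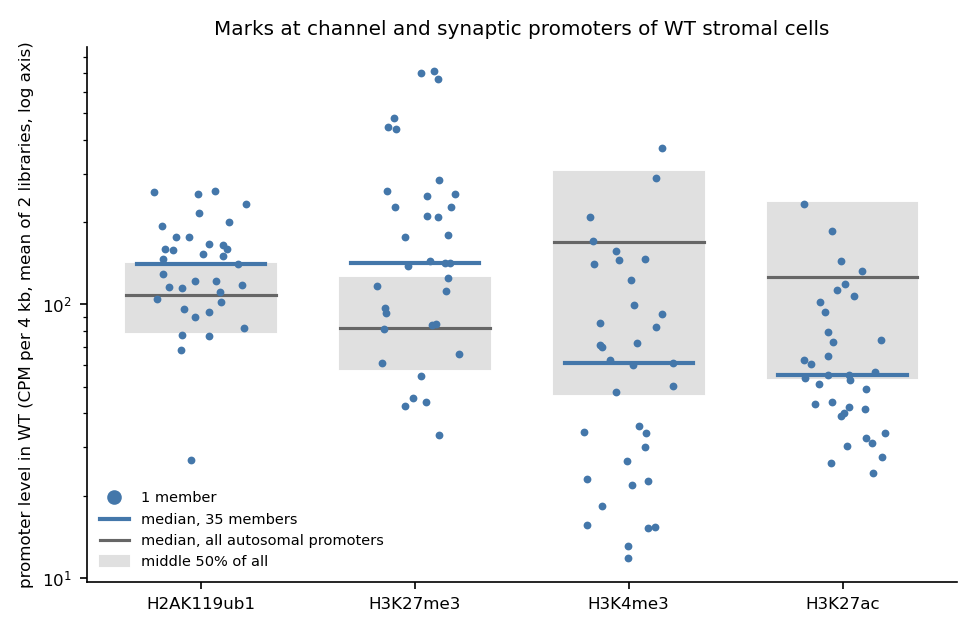
Promoter level of each mark in WT stromal cells, as the mean CPM of 2 libraries on a log axis, for the 35 channel and synaptic genes (points, blue line at their median) and for all autosomal promoters (grey line at the median, band over the middle 50%). The points crowd above the grey line for H2AK119ub1 and H3K27me3 and below it for H3K4me3 and H3K27ac.

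The highest WT H3K27me3 was at Kcnj4, which encodes an inward rectifier potassium channel of brain and heart, with 878 and 544 CPM in the 2 libraries. Kcnma1, for the BK channel opened by calcium and voltage, had 798 and 604, and Cacna1g, for the T-type calcium channel Cav3.1, had 721 and 618. Kcnj4 also had the highest H2AK119ub1 of the group, 320.0 and 199 CPM, followed by Kcnk4, a two-pore potassium channel gene (TRAAK), with 246 and 269. At the other end, Clcn4, an endosomal chloride and proton exchanger, had the lowest H3K27me3 (35.3 and 31.1 CPM) and H2AK119ub1 (30.3 and 23.6) and the highest H3K27ac of the 35 (223 and 243). Highest in H3K4me3 were Clcn3, its endosomal relative (389 and 356 CPM), and Cacna2d1, an accessory calcium channel subunit that also binds the drug gabapentin (289.7 and 292). Of the 35, 0 were in the top 10% of both H3K27me3 and H3K4me3, as were 0 of the 3789 autosomal promoters, so this is not particular to the members.

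Between genotypes, promoters were tested with edgeR's quasi-likelihood test, and "rose", "fell", "gained" and "lost" refer to a Benjamini-Hochberg adjusted p at or under 0.05 over all promoters. A value with ± in what follows is the log2 change of cKO over WT with its standard error, from 2 libraries per genotype. Libraries were scaled to their own autosomal counts in the measured windows, so a rise or a loss is relative to the other promoters. A change shared by most promoters of a mark would be scaled away and could not be seen. Every one of the 35 passed the filter on low counts in all 4 marks. H2AK119ub1 rose at 2 and fell at 10 of them, while over all autosomal promoters 17.3% rose and 13.7% fell. H3K27me3 rose at 5 and fell at 9, against 12.9% and 13.7% of all. H3K4me3 rose at 13 and fell at 12, against 41.1% and 31.5%, and H3K27ac rose at 8 and fell at 6, against 31.6% and 28.7%. As shares of the 35, the calls were 5.71% and 28.6% for H2AK119ub1, 14.3% and 25.7% for H3K27me3, 37.1% and 34.3% for H3K4me3 and 22.9% and 17.1% for H3K27ac. The shares that lost a Polycomb mark lay above those over all promoters, and the shares of H3K4me3 calls lay near them. Those of H3K27ac calls and of Polycomb gains in H2AK119ub1 lay below. These differences between shares were not tested, and the shares were not matched for WT level, in which members differ from all promoters. The median log2 change of cKO over WT was -0.21, -0.02, -0.08 and -0.18 in that order, against 0.04, 0.05, 0.05 and 0.02 over all autosomal promoters.

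Counted by whether the libraries of the 2 genotypes overlapped, both cKO libraries lay above both WT libraries at 7 of the 35 and below them at 17 in H2AK119ub1, against 35.6% and 30.1% of all autosomal promoters. The counts were 11 and 13 in H3K27me3 (against 31.9% and 29.3%), 16 and 16 in H3K4me3 (against 45.5% and 40%) and 13 and 16 in H3K27ac (against 41% and 38.8%). H3K4me3 and H3K27ac rose together at 8 (22.9%, against 28.8% of all), fell together at Kcnj15 and Trpc1 (5.71%, against 22.2%) and were called in opposite directions at 0 (against 0.775%). Of the 35, 3 were called in all 4 marks (8.57%, against 6.54%) and 4 in none (11.4%, against 12%).

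The H2AK119ub1 calls were the least stable. Without cKO replicate 1, 1 of the 10 losses and 0 of the 2 gains were called, and the whole test then called 4 autosomal promoters higher and 8 lower. Without cKO replicate 2 the losses at Cacna1b, Kcnk4 and Trpv1 and the gain at Cacnb1 were called, and the loss at Kcnma1, the one called without cKO replicate 1, was not. Each promoter was also tested relative to its neighbours, against the median change of the 20 nearest measured genes in H2AK119ub1 (for H2AK119ub1 itself, in H3K27me3). The H2AK119ub1 losses at Kcnma1 and Trpv1 were still called then, and Cacna1g was added. The H2AK119ub1 calls given below are to be read with this.

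**Figure D2:**
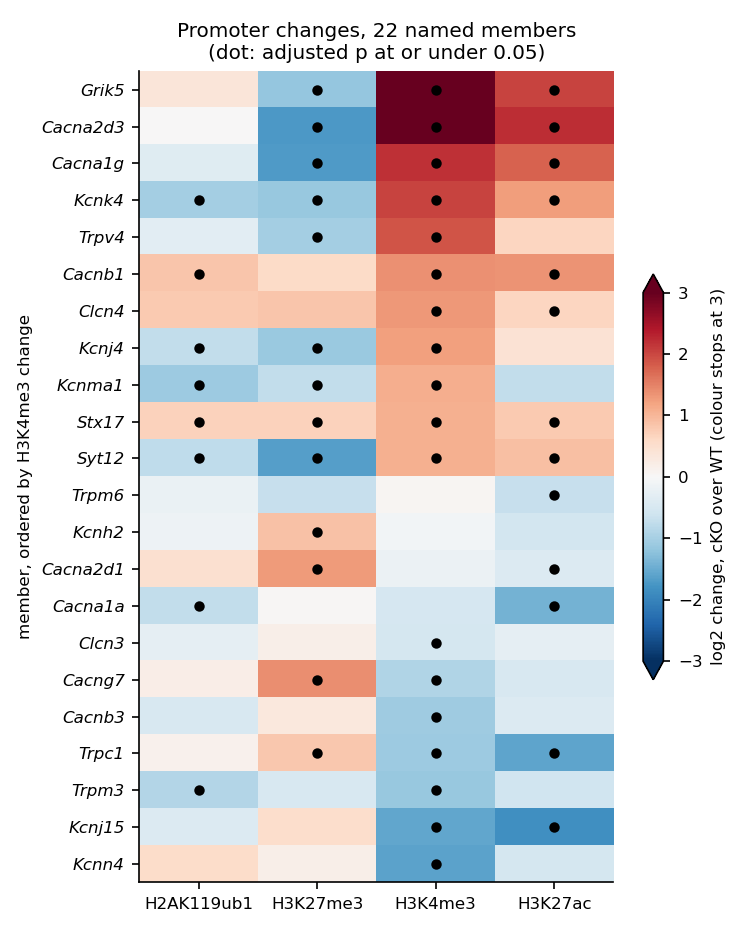
Log2 change of cKO over WT at the promoters of the 22 genes named by rule among the 35 (rows, ordered by the H3K4me3 change) in 4 marks (columns), with red for higher and blue for lower in cKO and a dot where the edgeR adjusted p was at or under 0.05. The top rows pair red H3K4me3 with blue H3K27me3, and colours stop at 3 although Grik5 and Cacna2d3 reached 4.33 and 3.88 in H3K4me3.

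An exchange of marks was seen at 11 genes. H3K27me3 fell and H3K4me3 rose at 8 genes: Cacna2d3, Grik5, Cacna1g, Kcnk4, Trpv4, Syt12, Kcnj4 and Kcnma1. That is 22.9% of the 35, and 9.83% of all autosomal promoters combined an H3K27me3 loss with a gain of H3K4me3 or H3K27ac. These shares were not matched for WT level either. H3K27me3 rose with a loss of an active mark at 3 genes, Cacna2d1, Cacng7 and Trpc1 (8.57%, against 6.54% of all). H3K27me3 and an active mark were called in the same direction at 1 gene, Stx17 (2.86%, against 6.81%).

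The RefSeq table holds the promoters of 8 of these 11 genes, and the sequence is shown for the 6 of them whose H3K4me3 and H3K27me3 log2 changes differed most. Each line gives the 250 bases before the gene start, 5′ to 3′ on the gene's strand, from RefSeq for GRCm38.p6, with every CG dinucleotide in capitals; CG-rich promoters are where Polycomb marks and H3K4me3 are both commonly found. The stretches are chr14:29721865-29722114 (minus strand), chr7:25072370-25072619 (minus strand), chr19:6934516-6934765 (minus strand), chr5:114658422-114658671 (minus strand), chr15:79505242-79505491 (minus strand) and chr7:3332575-3332824 (plus strand).
Cacna2d3: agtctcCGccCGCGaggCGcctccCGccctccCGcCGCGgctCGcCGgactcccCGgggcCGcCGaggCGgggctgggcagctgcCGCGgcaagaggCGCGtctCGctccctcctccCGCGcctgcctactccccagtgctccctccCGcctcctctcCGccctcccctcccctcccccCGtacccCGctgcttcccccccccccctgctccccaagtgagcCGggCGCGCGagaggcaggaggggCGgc
Grik5: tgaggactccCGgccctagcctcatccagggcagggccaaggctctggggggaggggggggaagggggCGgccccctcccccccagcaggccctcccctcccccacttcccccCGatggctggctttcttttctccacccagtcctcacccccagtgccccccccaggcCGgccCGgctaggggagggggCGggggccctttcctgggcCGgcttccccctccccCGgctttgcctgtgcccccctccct
Kcnk4: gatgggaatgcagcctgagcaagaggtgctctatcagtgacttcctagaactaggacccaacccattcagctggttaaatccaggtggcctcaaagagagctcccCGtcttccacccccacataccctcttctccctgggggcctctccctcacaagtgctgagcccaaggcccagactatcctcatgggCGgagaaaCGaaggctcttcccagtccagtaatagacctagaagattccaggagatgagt
Trpv4: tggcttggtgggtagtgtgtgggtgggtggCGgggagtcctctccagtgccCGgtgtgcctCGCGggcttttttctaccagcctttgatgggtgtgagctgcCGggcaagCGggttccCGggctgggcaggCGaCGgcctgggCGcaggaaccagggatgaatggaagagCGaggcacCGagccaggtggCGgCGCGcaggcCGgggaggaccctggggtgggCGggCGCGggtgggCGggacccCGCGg
Kcnj4: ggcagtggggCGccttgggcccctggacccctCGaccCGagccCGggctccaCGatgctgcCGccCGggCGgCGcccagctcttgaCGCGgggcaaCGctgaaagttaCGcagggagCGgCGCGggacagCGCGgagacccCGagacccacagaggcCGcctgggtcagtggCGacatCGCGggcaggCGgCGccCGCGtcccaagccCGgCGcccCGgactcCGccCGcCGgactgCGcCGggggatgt
Cacng7: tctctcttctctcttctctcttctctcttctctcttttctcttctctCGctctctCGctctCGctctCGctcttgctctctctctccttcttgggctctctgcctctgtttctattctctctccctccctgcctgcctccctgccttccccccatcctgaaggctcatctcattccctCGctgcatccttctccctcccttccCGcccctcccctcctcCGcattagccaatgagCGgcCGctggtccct
The stretches differ widely in their CG count, with 35 in Kcnj4, 30 in Cacna2d3 and 22 in Trpv4 but 9 in Cacng7, 8 in Grik5 and 3 in Kcnk4. H3K27me3 was exchanged for H3K4me3 at CG-rich starts (Kcnj4, Cacna2d3, Trpv4) and at CG-poor ones (Grik5, Kcnk4). Cacng7, the last, showed the opposite exchange, as did Trpc1 and Cacna2d1, whose stretches hold 17 and 36 CG. The opposite exchange at a CG-poor start thus rests on the count at Cacng7 alone. By the ratio of observed to expected CG used below, with its limit of 0.6, Cacng7 (0.62), Trpc1 (0.75) and Cacna2d1 (0.92) all lay above the limit. H3K27me3 rose at 4 of the 14 members at or above 0.6 and at 0 of the 12 under it. It fell at 3 in each class, and these differences were not tested. Over all autosomal promoters, not split by this ratio, H3K27me3 rose at 12.9% and fell at 13.7%. Shares over all promoters of each class are not given, so these counts do not show a trait particular to the members. Of the other genes with such changes, the 4 kb promoters counted are, on GRCm38, chr11:94472199-94476198 for Cacna1g, chr19:4475448-4479447 for Syt12, chr14:24002860-24006859 for Kcnma1, chr9:95748359-95752358 for Trpc1, chr5:15932691-15936690 for Cacna2d1 and chr4:48122926-48126925 for Stx17.

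Cacna2d3 encodes an accessory alpha-2-delta subunit that brings voltage-gated calcium channels to the membrane. Its H3K27me3 was 542 and 350.4 CPM in WT and 129 and 141 in cKO (log2 change -1.72 ± 0.27, adjusted p = 3.54e-09). Its H3K4me3 was 24.2 and 21.9 CPM in WT and 357 and 318 in cKO (14.7-fold, 3.88 ± 0.14, adjusted p = 1.16e-165), and its H3K27ac 35.7 and 17.1 CPM in WT and 141 and 102 in cKO (2.22 ± 0.29, adjusted p = 2.9e-07). Libraries of the 2 genotypes did not overlap in these 3 marks, and cKO H3K4me3 stood above the median of all promoters in WT, 169 CPM, in both libraries. H2AK119ub1 overlapped between genotypes at this gene, with 148 and 146 CPM in WT and 177 and 122 in cKO. In Grik5, for a kainate-type glutamate receptor subunit, H3K4me3 was 8.38 and 15.3 CPM in WT and 223 and 264 in cKO, the largest change of the 35 (20.2-fold, 4.33 ± 0.17, adjusted p = 8.09e-134). Its H3K27ac was 26.8 and 28.6 CPM in WT and 126 and 101 in cKO (2.03 ± 0.25, adjusted p = 2.1e-08) and its H3K27me3 114 and 120.4 CPM in WT and 49.2 and 55.6 in cKO (-1.16 ± 0.35, adjusted p = 0.00538). Here too the genotypes were apart in every library, and the H3K27me3 loss started from a lower level than at the other genes of this kind.

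Cacna1g had the third largest H3K4me3 gain. H3K27me3 was 721 and 618 CPM in WT and 209 and 200.002 in cKO (-1.71 ± 0.26, adjusted p = 1.27e-09), H3K4me3 83.6 and 82.0 CPM in WT and 362 and 396 in cKO (2.20 ± 0.11, adjusted p = 6.36e-92) and H3K27ac 31.9 and 51.2 CPM in WT and 147 and 141 in cKO (1.78 ± 0.23, adjusted p = 4.2e-08). All cKO libraries lay outside the WT range in these marks, while the median log2 change of the 20 nearest measured genes was 0.51 in H2AK119ub1 and 0.60 in H3K27me3. At Trpv4, a calcium-permeable channel opened by stretch and osmotic swelling and important in cartilage and bone, H3K27me3 was 221 and 201 CPM in WT and 92.2 and 117 in cKO (-1.02 ± 0.28, adjusted p = 0.00179) and H3K4me3 34.6 and 34.0 CPM in WT and 113 and 138 in cKO (1.88 ± 0.18, adjusted p = 6.62e-25). Its H3K27ac was 39.1 and 41.0 CPM in WT and 74.4 and 51.6 in cKO, higher in both cKO libraries but just short of the threshold (0.65 ± 0.29, adjusted p = 0.0504).

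At 4 genes H2AK119ub1 fell together with H3K27me3 (11.4% of the 35, against 6.22% of all promoters), and these were Kcnk4, Kcnma1, Kcnj4 and Syt12. Both rose at 1, Stx17 (2.86%, against 5.02%). Kcnk4 is one of 3 genes called in all 4 marks. Its H2AK119ub1 was 246 and 269 CPM in WT and 116 and 137 in cKO (-1.02 ± 0.20, adjusted p = 1.46e-05) and its H3K27me3 545 and 413 CPM in WT and 186 and 254 in cKO (-1.13 ± 0.26, adjusted p = 0.000127). Its H3K4me3 was 37.1 and 30.7 CPM in WT and 137 and 138 in cKO (2.03 ± 0.17, adjusted p = 3.98e-30) and its H3K27ac 42.5 and 59.9 CPM in WT and 149.5 and 97.5 in cKO (1.26 ± 0.24, adjusted p = 2.46e-05). Both Polycomb marks were lower and both active marks higher in each cKO library than in each WT library. Syt12, for a synaptotagmin of synaptic vesicles, did the same with 253 and 254 CPM in WT and 153 and 145 in cKO in H2AK119ub1 (-0.77 ± 0.20, adjusted p = 0.00111) and 222 and 196 CPM in WT and 69.2 and 63.7 in cKO in H3K27me3 (-1.65 ± 0.29, adjusted p = 1.7e-07). Its H3K4me3 was 94.1 and 104 CPM in WT and 215 and 202 in cKO (1.07 ± 0.13, adjusted p = 2.06e-16) and its H3K27ac 107 and 108 CPM in WT and 225 and 177 in cKO (0.90 ± 0.18, adjusted p = 5.74e-05). The genotypes did not overlap at Syt12 in any mark either.

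Kcnj4 and Kcnma1 lost both Polycomb marks and gained H3K4me3, but H3K27ac did not pass the test. Kcnj4 had 320.0 and 199 CPM in WT and 166 and 144 in cKO in H2AK119ub1 (-0.75 ± 0.20, adjusted p = 0.00151), 878 and 544 CPM in WT and 300.4 and 359 in cKO in H3K27me3 (-1.11 ± 0.25, adjusted p = 9.05e-05) and 54.5 and 65.9 CPM in WT and 120.3 and 160.4 in cKO in H3K4me3 (1.22 ± 0.15, adjusted p = 1.28e-14). WT replicate 1 was well above WT replicate 2 in both Polycomb marks at this gene, and the H2AK119ub1 call was lost without it. Kcnma1 had 232 and 232 CPM in WT and 137 and 81.3 in cKO in H2AK119ub1 (-1.10 ± 0.20, adjusted p = 4.01e-06), 798 and 604 CPM in WT and 468 and 367 in cKO in H3K27me3 (-0.75 ± 0.25, adjusted p = 0.0122) and 50.6 and 45.2 CPM in WT and 97.8 and 105 in cKO in H3K4me3 (1.09 ± 0.18, adjusted p = 4.17e-09). Its H3K27ac was 33.6 and 44.4 CPM in WT and 13.9 and 33.2 in cKO, lower in both cKO libraries (-0.73 ± 0.38, adjusted p = 0.0946). Every cKO library still held more H3K27me3 at Kcnj4 and Kcnma1 than the WT mean of Syt13 (286 CPM), itself in the top 10%. The H3K27me3 call at Kcnma1 was lost without either cKO replicate, over 5 kb to each side and relative to neighbouring genes.

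**Figure D3:**
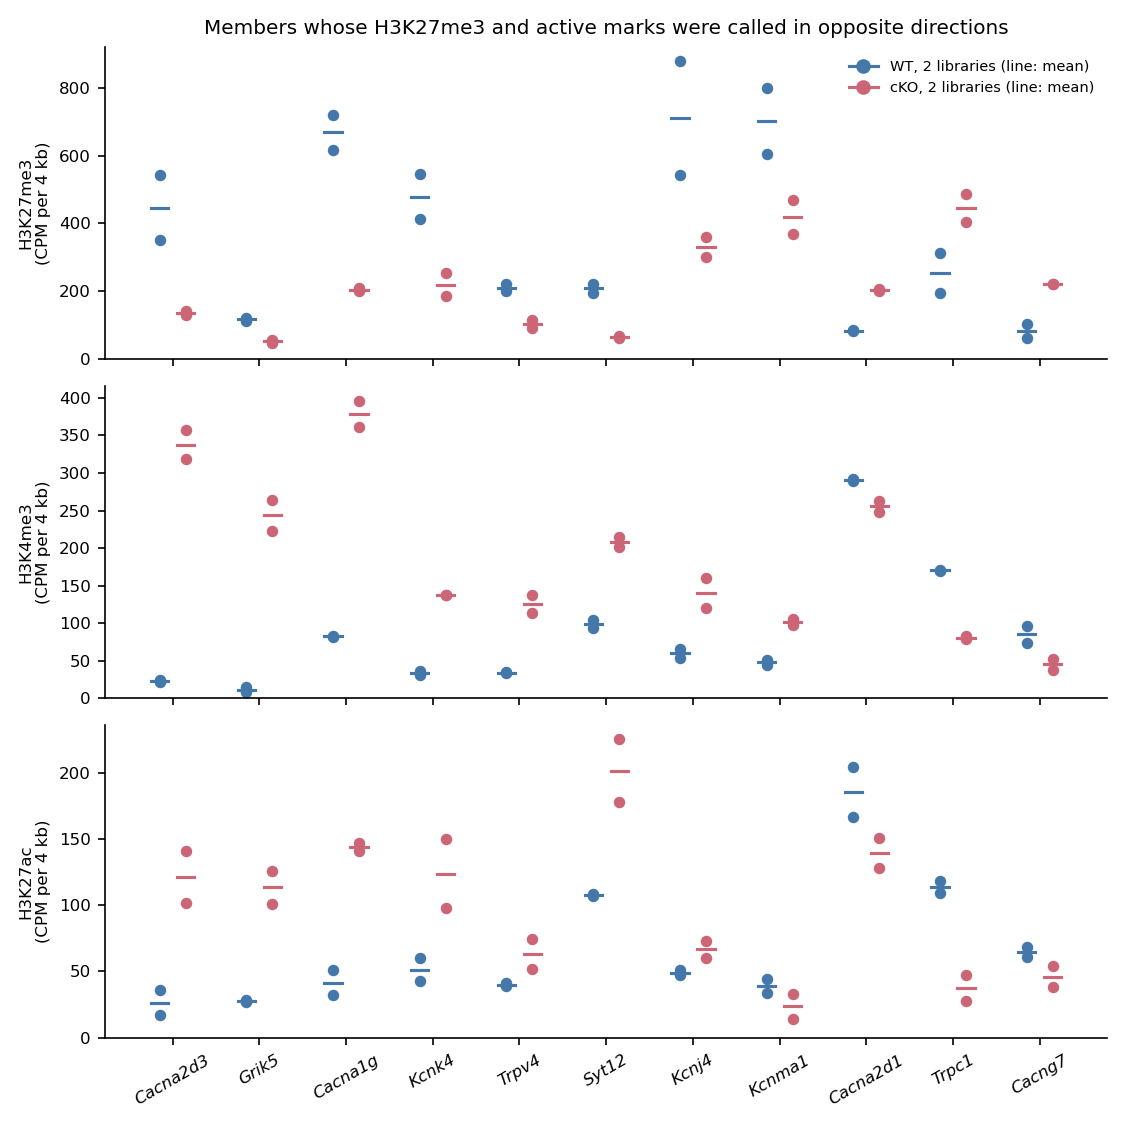
CPM of H3K27me3, H3K4me3 and H3K27ac at the 11 genes whose H3K27me3 and active marks were called in opposite directions, with WT libraries in blue, cKO libraries in red and a line at each mean of 2. In the first 8 genes the red points are under the blue in H3K27me3 and above them in H3K4me3, and in the last 3 the order of H3K27me3 is turned.

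In the opposite exchange H3K27me3 rose by 0.81 to 1.40 on the log2 scale. Relative to neighbouring genes these changes were smaller. By the same edgeR test they were then 0.80 at Cacng7 (adjusted p = 0.0256), 0.75 at Cacna2d1 (adjusted p = 0.0368) and 0.41 at Trpc1 (adjusted p = 0.287). Cacng7, for a gamma subunit that accompanies neuronal calcium channels and AMPA receptors, had 63.8 and 104 CPM in WT and 223 and 223 in cKO in H3K27me3 (1.40 ± 0.28, adjusted p = 1.04e-05) and 74.4 and 96.2 CPM in WT and 38.1 and 52.3 in cKO in H3K4me3 (-0.91 ± 0.19, adjusted p = 4.04e-06). Trpc1, a calcium-permeable channel subunit found in many tissues, had 314 and 194 CPM in WT and 405 and 488 in cKO in H3K27me3 (0.81 ± 0.26, adjusted p = 0.00807), 169 and 171 CPM in WT and 78.8 and 82.6 in cKO in H3K4me3 (-1.08 ± 0.14, adjusted p = 3.4e-14) and 118 and 109 CPM in WT and 27.9 and 47.3 in cKO in H3K27ac (-1.59 ± 0.25, adjusted p = 1.56e-06). At Cacna2d1 H3K27me3 was 85.3 and 83.9 CPM in WT and 201 and 208 in cKO (1.27 ± 0.28, adjusted p = 6.96e-05) and H3K27ac 166 and 204 CPM in WT and 151 and 128 in cKO (-0.41 ± 0.18, adjusted p = 0.0431). The 2 alpha-2-delta genes measured thus stood on opposite sides, Cacna2d3 losing H3K27me3 and Cacna2d1 gaining it. The H3K27ac call at Cacna2d1 was lost without either WT replicate, without cKO replicate 2 and with DESeq2, and the H3K27me3 call at Trpc1 was lost without WT replicate 2, without either cKO replicate, over 5 kb to each side and relative to neighbouring genes.

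The calls of the exchanges rest unequally on 1 library. Without cKO replicate 1, H3K27me3 fell at 3 of the 35, Cacna1g, Cacna2d3 and Syt12, and the calls at Grik5, Kcnj4, Kcnk4, Kcnk10, Kcnma1 and Trpv4 were lost, with all autosomal losses going from 512 to 285. The 13 gains of H3K4me3 were kept, gene for gene, without any one library and relative to neighbouring genes. In such fits the lone library of a genotype is assumed to vary like the other pair. At the genes whose H3K27me3 call was lost without cKO replicate 1, the log2 change kept its direction. It was -1.05 at Grik5, -0.96 at Kcnj4, -0.89 at Kcnk4, -0.77 at Kcnk10, -0.90 at Kcnma1 and -0.83 at Trpv4. The H3K27me3 and H3K4me3 calls at Cacna1g, Cacna2d3, Syt12 and Cacng7 were both kept without any one library.

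Across the 35 genes the log2 changes in H3K27me3 and H3K4me3 correlated at Pearson r -0.58 (Spearman -0.46), against -0.25 (-0.13) over 3749 autosomal promoters. Changes in the active marks went together at r 0.85, against 0.82 over all, and those in the Polycomb marks at 0.48, against 0.54. These are correlations across genes, which share libraries and are not independent replicates, and they carry no p-value.

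**Figure D4:**
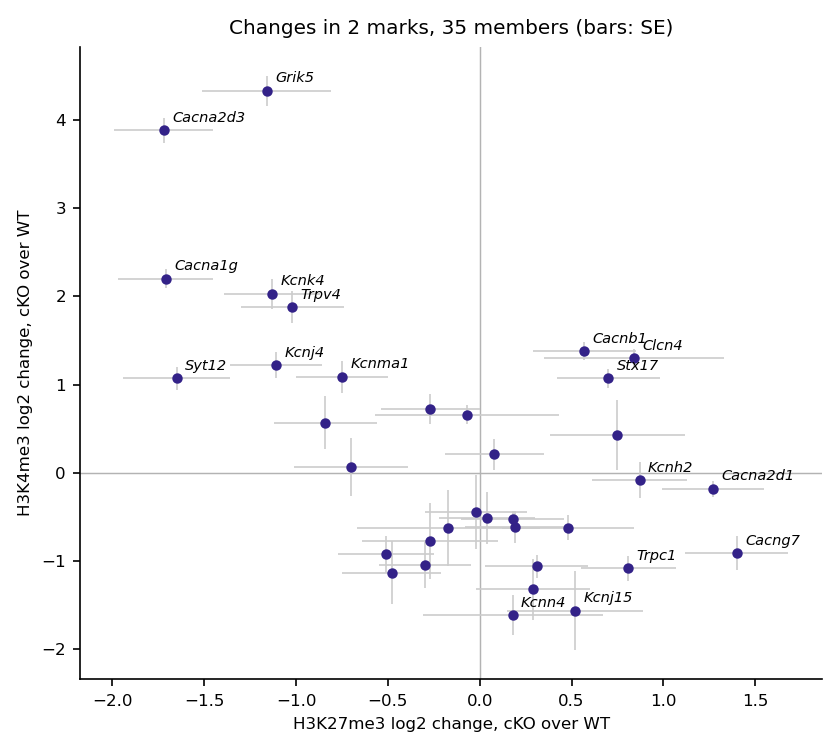
Log2 change in H3K4me3 against log2 change in H3K27me3, cKO over WT, for the 35 genes, with the standard error of each fit as bars. The 8 genes of the upper left lost H3K27me3 and gained H3K4me3, while Cacnb1, Clcn4 and Stx17 at the upper right gained H3K4me3 without a loss of H3K27me3.

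Of the 10 potassium channel genes, H3K4me3 rose at Kcnk4, Kcnj4 and Kcnma1 (30%, against 41.1% of all autosomal promoters) and fell at Kcnn4, Kcnj15 and Kcna4 (30%, against 31.5%). H3K27me3 fell at Kcnk4, Kcnj4, Kcnma1 and Kcnk10 (40%, against 13.7%) and rose at Kcnh2 (10%, against 12.9%). H2AK119ub1 fell at 3 (30%, against 13.7%) and rose at 0 (against 17.3%). The largest H3K4me3 loss of the 35 was at Kcnn4, the calcium-activated channel of red cells, lymphocytes and fibroblasts, with 77.5 and 66.9 CPM in WT and 25.8 and 21.7 in cKO (-1.61 ± 0.23, adjusted p = 7e-12). Kcnj15, an inward rectifier of kidney, had 18.2 and 18.3 CPM in WT and 5.70 and 6.58 in cKO in H3K4me3 (-1.56 ± 0.45, adjusted p = 0.000875) and 59.8 and 53.3 CPM in WT and 17.6 and 14.05 in cKO in H3K27ac (-1.83 ± 0.35, adjusted p = 2.6e-05), from a low WT level of H3K4me3, with the H3K4me3 call lost relative to neighbouring genes. The genotypes did not overlap at either gene in the active marks. At Kcnh2, the hERG channel gene of the heartbeat, H3K27me3 was 192 and 160.1 CPM in WT and 259 and 385 in cKO (0.87 ± 0.26, adjusted p = 0.00576), a call lost without cKO replicate 2, relative to neighbouring genes and within 1 kb of the start, and its active marks overlapped between genotypes. Kcnk10, a stretch-sensitive two-pore channel gene (TREK-2), lost H3K27me3 with 243 and 211 CPM in WT and 124 and 130.2 in cKO (-0.84 ± 0.28, adjusted p = 0.0124), a call lost without either cKO replicate, and its H3K4me3 change did not pass the test (0.57 ± 0.30, adjusted p = 0.0721). Its relative Kcnk2 (TREK-1) and the inward rectifier gene Kcnj14 were called in no mark.

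Of the 8 calcium channel genes, H3K4me3 rose at Cacna2d3, Cacna1g and Cacnb1 and fell at Cacnb3, Cacna1b and Cacng7. Both shares, 37.5%, lie near those over all autosomal promoters, 41.1% and 31.5%. The 2 beta subunits, which sit on the inner side of the channel, moved apart. Cacnb1, the beta subunit of skeletal muscle, had 153 and 161 CPM in WT and 380.0 and 437 in cKO in H3K4me3 (1.38 ± 0.10, adjusted p = 4.58e-46) and 63.5 and 84.4 CPM in WT and 205 and 171 in cKO in H3K27ac (1.34 ± 0.20, adjusted p = 5.16e-07). Cacnb3, a beta subunit of brain and smooth muscle, had 217 and 200.4 CPM in WT and 108 and 92.6 in cKO in H3K4me3 (-1.06 ± 0.13, adjusted p = 3.3e-16). At Cacnb1 H2AK119ub1 rose too, with 125 and 118 CPM in WT and 235 and 201 in cKO (0.84 ± 0.20, adjusted p = 0.000424), and the median log2 change of its neighbours was 0.56 in H3K27me3, with the call lost relative to them. Among the pore-forming subunits, Cacna1a (P/Q-type) and Cacna1b (N-type), which open at nerve terminals, lost H2AK119ub1, with 195 and 193 CPM in WT and 105 and 129 in cKO (-0.73 ± 0.20, adjusted p = 0.00248) and 171 and 182 CPM in WT and 88.7 and 133 in cKO (-0.66 ± 0.21, adjusted p = 0.00712). Neither lost H3K27me3 by the test, and neither gained an active mark. Cacna1b fell in H3K4me3 (54.0 and 46.3 CPM in WT and 17.4 and 30.8 in cKO, -1.04 ± 0.26, adjusted p = 0.000122), and Cacna1a in H3K27ac (129 and 108 CPM in WT and 49.4 and 39.2 in cKO, -1.42 ± 0.23, adjusted p = 2.58e-06). By the main test, a loss of H2AK119ub1 at a strongly Polycomb-marked channel promoter was thus paired with gains of H3K4me3 at some genes. At others it was paired with losses of an active mark. Relative to neighbouring genes the H2AK119ub1 changes at Cacna1a (-0.53) and Cacna1b (-0.16) were not called. Neither were those at Kcnk4, Kcnj4 and Syt12, while that at Kcnma1 was.

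TRP channels sense temperature, stretch, lipids and ions. Of the 6 genes, H3K4me3 fell at Trpc1, Trpm3 and Trpv2 (50%, against 31.5% of all autosomal promoters) and rose at Trpv4 (16.7%, against 41.1%). H3K27ac fell at Trpc1, Trpm6 and Trpv1 (50%, against 28.7%) and rose at 0 (against 31.6%). Trpm3, a heat and steroid sensor of sensory nerves, had 177 and 177 CPM in WT and 112 and 80.6 in cKO in H2AK119ub1 (-0.88 ± 0.21, adjusted p = 0.000409) and 24.8 and 28.9 CPM in WT and 10.8 and 13.7 in cKO in H3K4me3 (-1.13 ± 0.36, adjusted p = 0.00282). Trpm6, a magnesium channel of gut and kidney, had 141 and 124 CPM in WT and 76.5 and 89.1 in cKO in H3K27ac (-0.68 ± 0.20, adjusted p = 0.00403), with no call in the other marks, and this call was lost without WT replicate 1, within 1 kb of the start and relative to neighbouring genes (-0.24, adjusted p = 0.34). Trpv1, the capsaicin receptor, had 59.4 and 65.7 CPM in WT and 23.9 and 43.5 in cKO in H3K27ac (-0.89 ± 0.31, adjusted p = 0.0134), a call lost without WT replicate 1, WT replicate 2 or cKO replicate 1 and within 1 kb of the start, and 124 and 119.7 CPM in WT and 57.6 and 91.8 in cKO in H2AK119ub1 (-0.70 ± 0.24, adjusted p = 0.0149). Trpv2, a related channel of immune and muscle cells, had 140.3 and 149.6 CPM in WT and 88.6 and 100.1 in cKO in H3K4me3 (-0.62 ± 0.14, adjusted p = 2.12e-05), a call lost within 1 kb of the start, where the log2 change was 0.15 (adjusted p = 0.7). The 3 vanilloid-type genes thus differed in the mark and the direction called, and Trpv4 is the one called higher in H3K4me3 and lower in H3K27me3; differences between the genes were not tested.

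Among the sodium and chloride genes, Scn3a, a pore-forming sodium channel subunit of the embryonic brain, had 23.8 and 36.1 CPM in WT and 11.1 and 13.0 in cKO in H3K4me3 (-1.32 ± 0.35, adjusted p = 0.000292). Clcn4 had 144 and 138 CPM in WT and 364 and 332 in cKO in H3K4me3 (2.47-fold, adjusted p = 7.33e-38) and 223 and 243 CPM in WT and 357 and 373 in cKO in H3K27ac (0.65 ± 0.15, adjusted p = 0.000359). Clcn3 fell in H3K4me3, with 389 and 356 CPM in WT and 256 and 261 in cKO (-0.52 ± 0.09, adjusted p = 1.42e-08). Neither chloride gene was called in a Polycomb mark, and relative to neighbouring genes the calls at Clcn4 in H3K27ac and at Clcn3 in H3K4me3 were lost.

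Among the genes of synaptic transmission, both kainate receptor genes gained H3K4me3. Beside Grik5, Grik2 had 61.7 and 63.4 CPM in WT and 106 and 101 in cKO (0.72 ± 0.17, adjusted p = 4.04e-05) with no call in another mark, and the authors marked it DOWN. Chrnb1, the beta subunit of the muscle acetylcholine receptor, was called in no mark, with H3K4me3 at 67.0 and 72.8 CPM in WT and 84.5 and 77.7 in cKO. Syt13, a synaptotagmin that does not bind calcium, fell in H2AK119ub1 (171 and 149 CPM in WT and 87.9 and 106 in cKO, -0.72 ± 0.22, adjusted p = 0.00457) and in H3K4me3 (72.3 and 69.7 CPM in WT and 40.0 and 35.1 in cKO, -0.92 ± 0.21, adjusted p = 1.82e-05), and Syt8 was called in no mark. Stx17, the syntaxin that fuses autophagosomes with lysosomes, was the third gene called in all 4 marks, and there all 4 rose. Its H2AK119ub1 was 91.9 and 61.1 CPM in WT and 117 and 128 in cKO (0.68 ± 0.24, adjusted p = 0.0164), its H3K27me3 84.5 and 109 CPM in WT and 152 and 163 in cKO (0.70 ± 0.28, adjusted p = 0.0471), its H3K4me3 119.1 and 127 CPM in WT and 261 and 256 in cKO (1.07 ± 0.11, adjusted p = 2.04e-20) and its H3K27ac 90.0 and 97.0 CPM in WT and 163 and 159.6 in cKO (0.79 ± 0.19, adjusted p = 0.000511). The 20 genes nearest to Stx17 had a median log2 change of 0.79 in H2AK119ub1 and 0.49 in H3K27me3, and relative to them its H3K4me3 was called and the other 3 marks were not. Without either cKO replicate the calls of both Polycomb marks at Stx17 were lost.

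The changes were also placed along the 10 kb window, as CPM per kb upstream (5 to 1 kb before the start), within 1 kb of the start, and downstream (1 to 5 kb after it). At Cacna2d3 H3K4me3 within 1 kb went from 8.70 and 7.38 in WT to 139 and 126 in cKO, and H3K27me3 there from 159.9 and 106 in WT to 34.0 and 40.0 in cKO. At Cacna1g H3K27me3 went from 237 and 187 in WT to 53.1 and 50.5 in cKO within 1 kb and from 111 and 96.7 in WT to 27.8 and 29.7 in cKO downstream, and H3K4me3 downstream went from 4.31 and 5.15 in WT to 26.1 and 31.9 in cKO. In the flanks of Cacna2d3, H3K4me3 upstream went from 2.54 and 3.72 in WT to 20.7 and 17.6 in cKO, and downstream it was slightly lower, from 5.32 and 5.47 in WT to 4.47 and 4.91 in cKO, where H3K27me3 went from 54.7 and 50.9 in WT to 34.1 and 38.1 in cKO. Lower H3K27me3 thus reached further than higher H3K4me3 on the downstream side of Cacna2d3. At Grik5 H3K4me3 within 1 kb went from 2.09 and 4.39 in WT to 103 and 119.4 in cKO, and upstream, where an end of the zinc finger gene Zfp574 lies 3.3 kb before the Grik5 start, it went from 18.7 and 19.1 in WT to 34.5 and 35.3 in cKO.

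**Figure D5:**
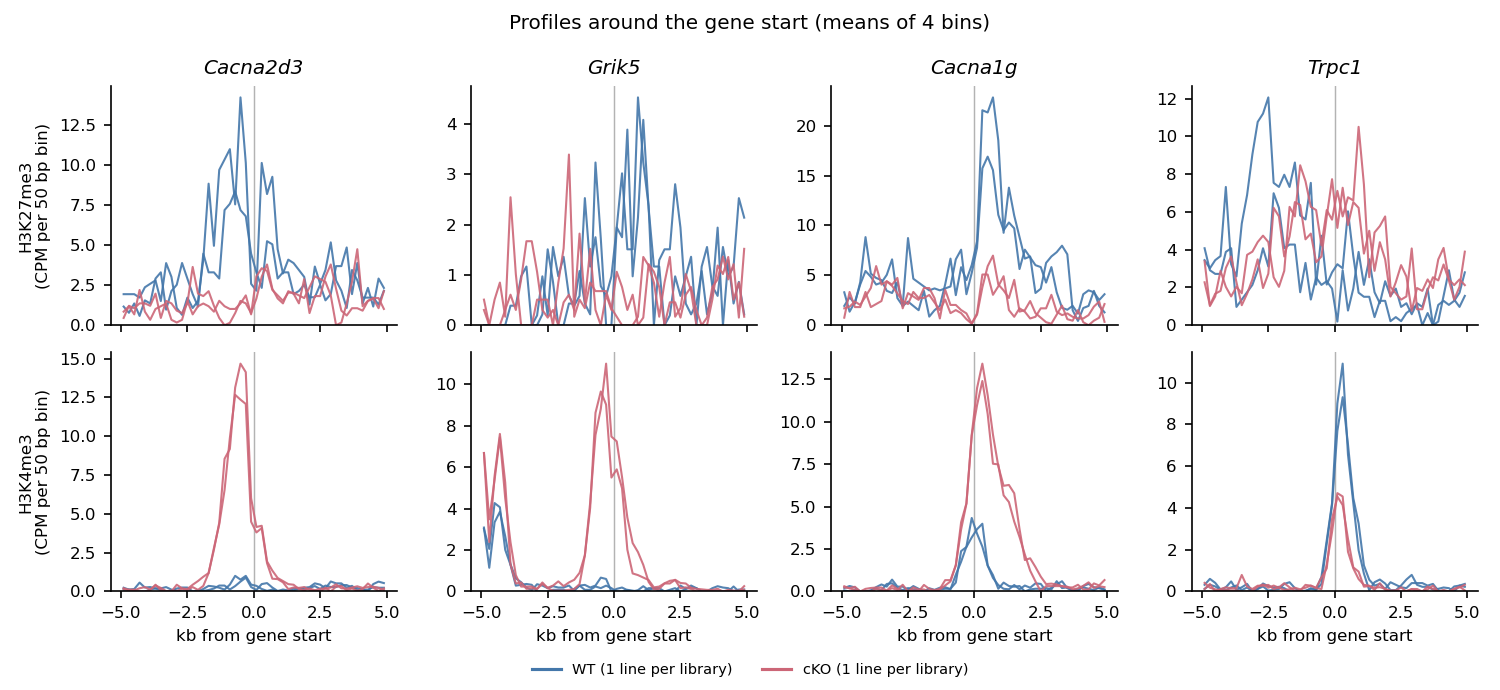
H3K27me3 (top) and H3K4me3 (bottom) along 10 kb around the starts of 4 genes, in CPM per 50 bp bin averaged over 4 bins, against distance in kb with upstream at negative values and 1 line per library. Near the starts of Cacna2d3, Grik5 and Cacna1g, H3K27me3 is higher in WT lines (blue) and H3K4me3 is higher in cKO lines (red). WT lines at Cacna1g also hold a smaller H3K4me3 peak. The H3K4me3 peak of Trpc1 is lower in cKO.

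Other genes differed in where the change lay. H3K27ac at Trpm6 went from 106 and 107 in WT to 60.8 and 40.0 in cKO upstream and from 17.5 and 19.1 in WT to 18.5 and 20.7 in cKO within 1 kb. At Cacna1a it was lower in all 3 stretches, going from 60.7 and 66.0 in WT to 23.1 and 20.1 in cKO upstream, from 17.5 and 10.9 in WT to 8.80 and 5.54 in cKO within 1 kb and from 17.2 and 10.1 in WT to 7.36 and 7.29 in cKO downstream. Tested within 1 kb alone, Cacna1a had a log2 change of -0.98 (adjusted p = 0.0621) and Trpm6 one of 0.10 (adjusted p = 0.803). At Kcnk10 H3K4me3 downstream, mostly outside the 4 kb counted, went from 5.52 and 6.08 in WT to 44.7 and 49.8 in cKO, H3K27ac there from 6.45 and 3.55 in WT to 18.7 and 22.5 in cKO and H3K27me3 from 79.9 and 65.9 in WT to 35.04 and 28.0 in cKO. At Trpc1 H3K27me3 within 1 kb went from 74.1 and 40.0 in WT to 112 and 130.2 in cKO and downstream from 19.4 and 29.7 in WT to 54.8 and 58.0 in cKO, and the genotypes overlapped upstream, with 132 and 67.6 in WT to 66.9 and 72.9 in cKO. Kcnk10 and Trpc1 were singled out here after their values were seen, and these stretches were not tested. At Stx17 H3K27me3 lay mostly upstream, where it went from 49.3 and 59.2 in WT to 89.2 and 96.8 in cKO, and within 1 kb it went from 10.3 and 21.4 in WT to 24.6 and 26.8 in cKO. Within the 4 kb promoter, 6 of the 35 hold a start or an end of another gene in the RefSeq tables, 5 of them with a noncoding one (Kcnma1, Syt13, Trpm6, Cacna2d1 and Clcn4); reads from these cannot be told apart.

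RefSeq promoters of 300 bases around the start were available for 26 of the 35 genes and for 2471 autosomal genes in all. Their GC content had a median of 62.5% (range 43.0% to 81.3%) against 62.0%, and they held a median of 17 CG dinucleotides against 20. A ratio of observed to expected CG of 0.6 or more, a common criterion of a CpG island, was met by 14 (53.8%) against 66.7% of all. The 14 had a median WT H3K27me3 of 176 CPM and the other 12 one of 121, and their H3K4me3 medians were 77.6 and 22.3 CPM. Across the 26 the CG count and WT H3K27me3 correlated at Spearman 0.43, against 0.06 over the 2471, and with WT H3K4me3 at 0.44 against 0.43, given as a description with no p-value. The letters GGACAGCGC, a part of the site of REST, the silencer of neuronal genes, was searched on both strands and found in 1 member (3.85%, against 0.728% of all), in Kcnj4, on the gene's strand with its first base 126 bases before the start, inside the stretch printed above. The other part, TTCAGCACC, also searched on both strands, was in 0 members and 0.202% of all, and TATAAA on the gene's strand was in 1, Trpv2 (3.85%, against 5.3%). With single matches these shares say only what letters these windows hold.

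The authors marked each gene UP or DOWN, by a contrast that the sources used here do not name, and 19 of the 35 carried UP and 16 DOWN. Of the 19, H3K4me3 rose at 11 and fell at 2 (57.9% and 10.5%, against 74.6% and 3.48% of all autosomal promoters marked UP), and H3K27ac rose at 8 and fell at 2 (against 61.4% and 3.49%). H3K27me3 fell at 9 of the 19 (47.4%) and rose at 1 (5.26%), against 22.6% and 8.58% of all marked UP, so every H3K27me3 loss of the group was at a gene marked UP. H2AK119ub1 rose at 2 and fell at 6, against 25% and 14.2%. Of the 16 marked DOWN, H3K4me3 rose at 2 and fell at 10 (against 9.16% and 58.1%) and H3K27ac rose at 0 and fell at 4 (against 3.27% and 52.7%). H3K27me3 rose at 4 and fell at 0 (against 16.9% and 5.1%), and H2AK119ub1 rose at 0 and fell at 4 (against 9.99% and 13.3%). Since the criterion of these marks is unknown, the split is not independent evidence of a direction.

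Other genes of the same processes were listed separately. Of 84 further genes of vesicle release, synaptic scaffolds and adhesion 14 were measured, and H3K4me3 rose at 6 and fell at 7 (42.9% and 50%, against 41.1% and 31.5% of all autosomal promoters). H3K27ac rose at 6 and fell at 5 (42.9% and 35.7%, against 31.6% and 28.7%), H3K27me3 rose at 2 and fell at 1 (14.3% and 7.14%, against 12.9% and 13.7%), and H2AK119ub1 rose at 2 and fell at 3 (14.3% and 21.4%, against 17.3% and 13.7%). The gains included Stxbp6, which binds SNARE proteins (H3K4me3 log2 2.74 ± 0.14), and Sv2a, a synaptic vesicle protein (2.04 ± 0.21), and the losses Nptxr, a neuronal pentraxin receptor (-1.81 ± 0.15), and Vamp5, a vesicle SNARE of muscle (-1.58 ± 0.12). Of 73 other channel genes 13 were measured, and H3K4me3 rose at 7 and fell at 0 (53.8% and 0%, against 41.1% and 31.5% of all). H3K27ac rose at 5 and fell at 2 (38.5% and 15.4%, against 31.6% and 28.7%), H3K27me3 rose at 1 and fell at 5 (7.69% and 38.5%, against 12.9% and 13.7%), and H2AK119ub1 rose at 2 and fell at 2 (15.4% each, against 17.3% and 13.7%). The 4 measured subunits of the volume-regulated anion channel, Lrrc8b, Lrrc8c, Lrrc8d and Lrrc8e, each lost H3K27me3 and gained both active marks. The H3K27me3 call at Lrrc8e lay near the threshold (-0.69 ± 0.27, adjusted p = 0.0425). How these calls depend on single libraries or on neighbouring genes is not given here. At Lrrc8d H3K27me3 was 368 ± 68.0 CPM in WT and 76.1 ± 5.51 in cKO (-2.27 ± 0.28), H3K4me3 121 ± 3.96 CPM in WT and 447 ± 29.1 in cKO (1.88 ± 0.10) and H3K27ac 41.6 ± 15.5 CPM in WT and 358 ± 54.5 in cKO (3.09 ± 0.21). Asic1, an acid-sensing channel gene, lost both Polycomb marks (H3K27me3 -1.36 ± 0.26) and gained H3K4me3 (0.61 ± 0.15).

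Of the 6 stromal markers measured, H3K4me3 fell at 5 and rose at 0 (83.3% lower, against 31.5% of all autosomal promoters) and H3K27ac fell at 4 and rose at 0 (66.7% lower, against 28.7%). All 6 carry the authors' mark DOWN, and of the autosomal promoters so marked 58.1% fell in H3K4me3 and 52.7% in H3K27ac. The H3K4me3 change was -3.51 ± 0.12 at Col1a2, -2.24 ± 0.09 at Pdgfrb and -0.33 ± 0.39 at Thy1, which was not called. Neuronal Tubb3, at 76.2 CPM in WT, fell in H3K4me3 (-0.55 ± 0.19), H3K27ac (-0.68 ± 0.26) and H2AK119ub1 (-0.68 ± 0.20), and muscle Des fell in H2AK119ub1 (-0.72 ± 0.22) and was called in no other mark. The neuron list (9 genes) and the muscle list (5 genes) thus rest on 1 measured gene each. The part of the stromal marker losses in the changes at channel and synaptic genes was not tested.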

How the data were processed

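Chromatin from WT and cKO stromal cells was immunoprecipitated for 4 histone marks with 2 libraries per mark and genotype, 16 in all. The authors deposited raw read counts per 50 bp bin, with bins covering the 10 kb centred on the start of 3925 selected genes, per the file headers. The genome build was GRCm38 and the tools were Bowtie2 2.4.5, cutadapt 1.18, SAMtools 1.9, bedtools 2.30.0 and Picard 2.25.5, per the submitters' processing notes, which list names and versions alone. Among short runs of filled bins 98.7% were 3 bins long, so 1 read was counted in about 3 bins, and counts overstate the number of reads.

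Gene symbols were taken from RefSeq (GRCm38.p6) by position, the 5′ end lying within 500 bp of the window's centre on its strand, which named 3390 windows (86.4%; 3.18% at a shift of 20 kb). Bins 61 to 140 were summed to the promoter count. Promoters were tested per mark with edgeR 4.0.16 (quasi-likelihood, genotype as the single term, TMM factors from the 10 kb windows, minimum count 10) in R 4.3.3, and p-values were adjusted over all promoters. The script was tested on simulated data. Replicate numbers did not pair libraries across genotypes (correlation of deviations -0.0396 to 0.0975). Alternatives were library totals, TMM from promoters, DESeq2 1.42.0, no filter, windows of 1 kb and 5 kb to each side, 1 bin in 3, each library left out, a replicate block, a test relative to neighbouring genes, all symbols with the same first letters, and a top 5% class.

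Genes were named with values by this rule: per mark and direction the 4 called members of lowest p whose libraries did not overlap, per mark the 2 of highest WT level, every member called in opposite directions in H3K27me3 and an active mark, and every member called in all 4 marks. Other members with values (Cacna1b, Chrnb1, Grik2, Kcnk10, Scn3a, Syt13, Trpv1, Trpv2) were taken to describe their families, after their values were seen. Some items are not reported here by name. The members and lists were chosen with earlier results of these data known. Library sizes, TMM factors and the shares of promoters called use autosomes.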

Additional observations from a re-analysis of the deposited data

How the results depend on the processing

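Of 52 calls at the genes named by the rule, each under 13 alternatives, 617 of the 676 values kept their call, 56 lost it with the same direction and 3 changed sign. Library totals, TMM from promoters, no filter and 1 bin in 3 lost none of the 52. Relative to neighbouring genes 36 of the 52 kept their call, 14 lost it with the same direction and 2 changed sign. Leaving out cKO replicate 1 lost 14, cKO replicate 2 lost 11, WT replicate 1 lost 4 and WT replicate 2 lost 3; the test relative to neighbouring genes lost 14. H2AK119ub1 gains (2) numbered 0 within 1 kb of the start, 5 over 5 kb to each side, 0 relative to neighbouring genes, 4 over every symbol with the same first letters, and 0 to 2 without 1 library. H2AK119ub1 losses (10) numbered 6 within 1 kb, 16 over 5 kb to each side, 3 relative to neighbouring genes, and 1 to 12 without 1 library. H3K27me3 gains (5) numbered 3 relative to neighbouring genes and 2 to 5 without 1 library, and H3K27me3 losses (9) 3 to 11. H3K27ac losses (6) numbered 10 over 5 kb to each side and 3 to 8 without 1 library. Counts of H3K4me3 calls and of H3K27ac gains stayed within 1.5 times under every alternative. Relative to neighbouring genes the log2 change of Stx17 turned to -0.09 in H3K27me3 and -0.002 in H3K27ac, and within 1 kb that of Trpm6 in H3K27ac turned to 0.10 and that of Trpv2 in H3K4me3, which is outside the 52, to 0.15. Shares over all autosomal promoters moved with the alternatives too. H2AK119ub1 gains (17.3%) were 7.14% within 1 kb, 22.9% over 5 kb to each side and 5.96% relative to neighbouring genes. H2AK119ub1 losses (13.7%) were 7.04%, 22.6% and 8.17% in that order. H3K27me3 gains (12.9%) were 9.15% relative to neighbouring genes, and H3K27ac losses (28.7%) 32.8% over 5 kb to each side. With the top 5% in place of 10%, 17.1% of members were in the top class of H3K27me3, against 5.17% of all autosomal promoters. In the fit with the replicate number as a block, there were 2 gains and 11 losses of H2AK119ub1, 9 and 8 of H3K27ac, 5 and 9 of H3K27me3, and 13 and 12 of H3K4me3, with all 52 calls kept; labels do not say that equal numbers share an animal. The cause of these differences was not tested, beyond the fewer libraries or bases that some alternatives use. With 2 libraries per genotype, and 166 counts at the median member promoter of the library with the fewest, small changes were not detectable.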
